A study of Mus musculus with 21 samples.

Results

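The genes described here are Hmgcs1, Idi1, Fdps, Fdft1, Sqle, Cyp51 and Insig1, 7 of the 16318 genes in the count table of whole brains from SAMP8 mice. They were listed by name as genes of cholesterol synthesis, with earlier results of these data known, and all 7 passed the filter on low counts together with 16303 genes in all. SAMP8 is an inbred mouse strain that ages early and develops memory deficits without carrying a transgene. All 21 mice were of this strain. The 12 PBS mice (6 female, 6 male) received vehicle and the 9 HsTX1[R14A] mice (3 female, 6 male) received 1 mg/kg of HsTX1[R14A], a peptide that blocks the voltage-gated potassium channel Kv1.3 and was given to act on microglia. According to the methods of the study, subcutaneous dosing began at 4 months of age and was repeated every other day for 8 weeks, and brains were taken after perfusion at 6 months of age. Each mouse gave 1 library of total brain RNA, with 14917174 to 47613792 estimated counts, of which each of the 7 genes took between 486 and 11069.

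Cholesterol does not cross the blood-brain barrier in useful amounts, so the brain makes its own, and most of it resides in myelin. Synthesis begins with acetyl-CoA and passes through mevalonate, the isoprenoid pyrophosphates, squalene and lanosterol. When sterols in the endoplasmic reticulum fall, the transcription factor SREBP2 (gene Srebf2) is carried to the Golgi by its escort Scap, is cut there, and switches on most genes of the pathway. Insig proteins hold Scap back when sterols are plentiful. Hmgcs1 makes HMG-CoA, from which mevalonate is formed. Idi1 interconverts the isoprenoid building blocks, Fdps joins them into farnesyl pyrophosphate, and Fdft1 couples farnesyl units into squalene, the first step committed to sterols. Sqle oxidizes squalene and Cyp51 removes a methyl group from lanosterol. Insig1 is the member that is a regulator and not an enzyme, and it is itself a target of SREBP2.

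The promoters are shown because SREBP2 acts through short elements near the start of these genes. RefSeq promoters for build GRCm38.p6 were found for 4 of the 7 genes, Hmgcs1, Insig1, Idi1 and Cyp51. In the 250 bases before each start, both strands were searched for the sterol regulatory element TCACNCCAC, the NF-Y motif CCAAT and the Sp1 motif GGGCGG, and no match overlapped another. Capitals mark the sterol regulatory element and the CCAAT boxes (ATTGG where the box is on the other strand) in the promoters of Hmgcs1 (chr13:119690101-119690350, plus strand) and Insig1 (chr5:28071162-28071362, plus strand, ended where the gene starts in GENCODE).
Hmgcs1: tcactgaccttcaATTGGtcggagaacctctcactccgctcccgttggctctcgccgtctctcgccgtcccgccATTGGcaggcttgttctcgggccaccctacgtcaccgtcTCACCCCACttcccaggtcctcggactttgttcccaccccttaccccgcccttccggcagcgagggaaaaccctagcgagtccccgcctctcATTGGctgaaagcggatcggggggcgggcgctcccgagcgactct
Insig1: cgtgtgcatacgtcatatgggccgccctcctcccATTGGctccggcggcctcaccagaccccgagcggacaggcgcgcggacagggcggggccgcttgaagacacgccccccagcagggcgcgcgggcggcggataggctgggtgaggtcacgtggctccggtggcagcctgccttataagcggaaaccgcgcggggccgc

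The sterol regulatory element in the form TCACNCCAC was found in the Hmgcs1 window alone, beginning 137 bases before the start. Of the 32851 RefSeq windows of the same length, 1.05% held it. Other forms of the element were not searched for, so the remaining windows are not shown to lack one. CCAAT was found in all 4 windows, against 33.8% of all windows, and GGGCGG in all 4, against 32.7%. Hmgcs1 held 3 CCAAT boxes, a number reached or passed by 2.79% of windows. The Idi1 window held 2 CCAAT boxes, 45 and 14 bases before its start, and the Cyp51 window 1, 29 bases before its start. The Idi1 and Cyp51 windows run 105 and 49 bases into the gene as GENCODE draws it, and their letters are not printed. All matches in the Idi1 window, and the CCAAT box of Cyp51, lie in these bases and not before the gene in GENCODE. These matches describe the letters in the windows and were not tested for binding.

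In the GRCm38 annotation, the 7 genes lie on 5 chromosomes. Hmgcs1 (ENSMUSG00000093930) spans chr13:119690379-119708260 and Idi1 (ENSMUSG00000058258) chr13:8885501-8892451. Insig1 (ENSMUSG00000045294) spans chr5:28071363-28078662 and Cyp51 (ENSMUSG00000001467) chr5:4081145-4104746. Sqle (ENSMUSG00000022351) spans chr15:59315077-59331192, Fdft1 (ENSMUSG00000021273) chr14:63145150-63179578 and Fdps (ENSMUSG00000059743) chr3:89093588-89101959. Only Sqle and Insig1 overlap no other annotated gene. Hmgcs1, Idi1, Fdft1 and Cyp51 each overlap 1 gene on the opposite strand, which is Ctsb for Fdft1 and Akap9 for Cyp51. Fdps overlaps Gm43738 and Gm22935 on its own strand, so the share of its reads that could belong to them is uncertain. Whether counting used strand is not known. If it did not, the same would hold for Hmgcs1, Idi1, Fdft1 and Cyp51.

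All 7 genes were well measured in every brain. Per kilobase of the longest transcript, Hmgcs1 was the most abundant at 67.8 ± 5.78 CPM per kb (mean ± SD, n = 21 mice). Idi1 (21.8 ± 5.32), Fdft1 (20.6 ± 2.51) and Insig1 (18.1 ± 2.01 CPM per kb) followed, then Fdps (13.5 ± 1.85) and Cyp51 (12.5 ± 1.37), and Sqle was the lowest at 9.26 ± 1.13 CPM per kb. The order was the same in 21 of 21 mice for Hmgcs1 over Idi1, Fdft1 over Insig1, Insig1 over Fdps and Cyp51 over Sqle. Idi1 exceeded Fdft1 in only 10 of 21 mice and Fdps exceeded Cyp51 in 15, so these neighbors did not separate beyond their spread.

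The main comparison asked how the brain transcriptome of HsTX1[R14A]-treated mice differed from that of PBS-treated mice. Of the 7 genes, Sqle rose and Idi1 fell with edgeR's quasi-likelihood test (sex in the model, FDR at most 0.05), and 5 did not pass. Across all genes the same test called 31.6%, with 15.5% higher and 16.1% lower, so 2 calls among 7 is close to the background. The median log2 difference of the 7 genes was -0.05, against -0.01 over all genes tested. In bulk tissue, fewer cells of a type and less RNA per cell cannot be told apart. Levels below are CPM scaled by TMM, and differences are log2 fold changes of HsTX1[R14A] over PBS with their standard error.

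Idi1, the isomerase, was the gene with the largest difference. Its level was 52.9 CPM in the lowest PBS mouse, 76.0 at the median and 110 in the highest, and 43.4, 53.1 and 75.1 CPM in the HsTX1[R14A] mice. None of the 9 treated mice reached the PBS median, and 4 lay below the lowest PBS mouse, although the groups overlapped. The log2 fold change was -0.43 ± 0.11, a fall of 25.9%, with an adjusted p of 0.0180 (edgeR). By sex, the mean level was 66.5 ± 12.96 CPM in PBS females (n = 6) and 51.4 ± 6.55 CPM in treated females (n = 3). It was 80.4 ± 16.2 CPM in PBS males and 57.9 ± 11.5 CPM in treated males (n = 6 each).

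Sqle, which carries out the first oxygenation of the sterol branch, differed in the opposite direction. It was measured at 35.3 CPM in the lowest PBS mouse, 38.8 at the median and 46.4 in the highest, and at 38.7, 43.3 and 56.1 CPM in the treated mice. Of the 9 treated mice, 8 exceeded the PBS median and 2 exceeded the highest PBS mouse. The log2 fold change was 0.21 ± 0.07, a rise of 15.7% (adjusted p = 0.0259, edgeR). The 3 treated females were at 41.2, 56.1 and 46.4 CPM, and the female at 56.1 CPM (mouse 71) was the highest of all 21 mice. Without that mouse the log2 fold change was 0.15 and the adjusted p 0.0773, so the call rests on it.

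Hmgcs1, at the head of the pathway, was at 208, 241 and 270 CPM (lowest, median, highest) in PBS mice and at 197, 225 and 245 CPM in treated mice. Only 2 treated mice lay above the PBS median. Its log2 fold change of -0.13 ± 0.05 did not pass the threshold (adjusted p = 0.0785, edgeR), while DESeq2 put it past the threshold (adjusted p = 0.0463). The regulator Insig1 was at 43.2, 49.9 and 60.7 CPM in PBS mice and at 37.5, 45.5 and 56.2 CPM in treated mice, with 3 treated mice below the lowest PBS mouse. Its log2 fold change was -0.11 ± 0.07 (adjusted p = 0.220, edgeR; 95% interval -0.26 to 0.04).

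The ranges of the remaining 3 enzymes overlapped between treatments. Fdft1 was at 61.5, 77.0 and 92.7 CPM in PBS mice and at 61.6, 78.0 and 91.0 CPM in treated mice. Fdps was at 30.9, 37.4 and 49.9 CPM in PBS mice and at 34.9, 39.3 and 48.5 CPM in treated mice. Above the PBS median lay 5 treated mice for Fdft1 and 7 for Fdps. Cyp51 was at 43.6, 49.9 and 57.4 CPM in PBS mice and at 42.0, 45.7 and 60.6 CPM in treated mice. Treated mice lay at both extremes, 2 above the highest PBS mouse and 3 below the lowest. The log2 fold changes had 95% intervals of -0.21 to 0.12 for Fdft1, -0.09 to 0.27 for Fdps and -0.20 to 0.10 for Cyp51. Differences within these intervals are not excluded.

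**Figure D1:**
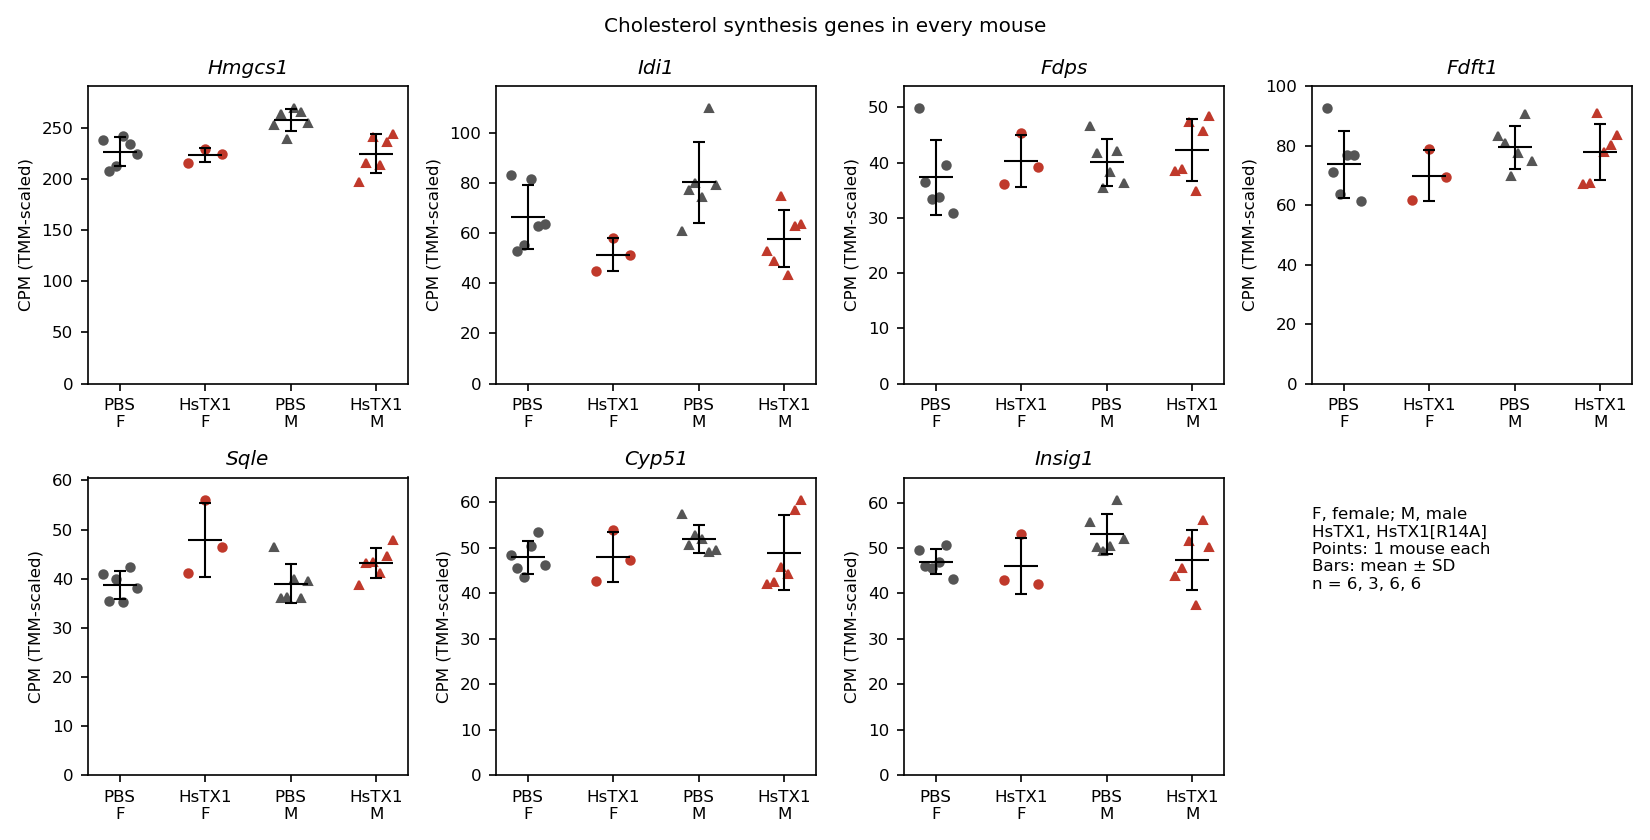
Level of each of the 7 genes (CPM, TMM-scaled, axis from 0) in every mouse by treatment and sex, 1 point per mouse with the mean and SD of each group. Idi1 sits lower and Sqle higher in HsTX1[R14A] mice with overlapping ranges, and Hmgcs1 is highest in PBS males.

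A property of the libraries moved with treatment and with several of these genes. The length slope of a library, the slope of its log2 CPM (relative to the mean over mice) on log2 transcript length, is higher where long transcripts are read relatively more. It ran from -0.384 to 0.147 in PBS mice (median -0.0229) and from -0.142 to 0.234 in HsTX1[R14A] mice (median 0.150). The share of counts from mitochondrial genes also differed, at 9.33% to 20.2% (median 14.5%) in PBS and 7.13% to 13.5% (median 9.40%) in treated mice. Within groups, the log2 level of Idi1 had a Pearson's r of -0.84 with the length slope over the 21 mice, Fdft1 -0.76, Fdps -0.65, Hmgcs1 -0.55 and Insig1 -0.50. Cyp51 (r of -0.13) and Sqle (0.07) scarcely moved with it. These values are descriptions that share library and depth. In a model with sex and treatment, a rise of 0.1 in the slope went with a log2 change of -0.15 ± 0.03 in Idi1 and 0.01 ± 0.02 in Sqle.

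With the length slope in the model, the Idi1 difference shrank to -0.13 ± 0.08 (adjusted p = 0.559, edgeR) and that of Sqle was 0.19 ± 0.08 (adjusted p = 0.360). Fdps stood at 0.25 ± 0.08 (adjusted p = 0.284) and Fdft1 turned from -0.05 to 0.13. In that model none of the 16303 genes passed (0%), with 1865 (11.4%) at an unadjusted p under 0.05, which 3 of the 7 genes, Fdps, Sqle and Fdft1, were among. A second correction, in which the trend of each library on transcript length and GC content was removed, gave other values. Under it Idi1 stood at -0.23 (adjusted p = 0.05002, edgeR), Sqle at 0.10 (adjusted p = 0.298), Fdps at 0.09 (adjusted p = 0.460) and Fdft1 at -0.17 (adjusted p = 0.288), opposite in sign to its value with the slope as a covariate. None of the 7 passed under either correction, and slope and treatment cannot be fully told apart in these mice.

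**Figure D2:**
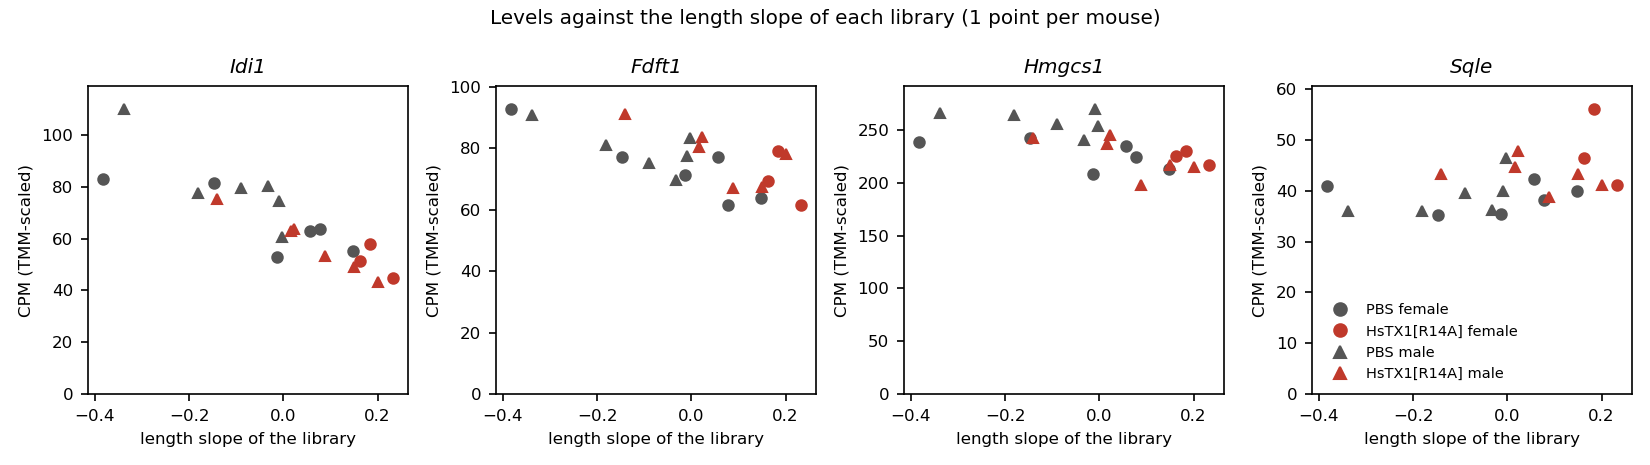
Level of Idi1, Fdft1, Hmgcs1 and Sqle (CPM, TMM-scaled, axis from 0) against the length slope of each library, 1 point per mouse, with color for treatment and shape for sex. Idi1 falls from 110 CPM at one of the lowest slopes to under 60 CPM at the highest, while Sqle shows no such trend.

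The libraries also carry 2 forms of name in the study's tables, beginning with SAMP8 (10 PBS and 5 HsTX1[R14A] mice) or with SAMP (2 and 4 mice), and what the forms stand for is not given in the sources used here. Idi1 was lower in treated mice within both, by a difference of mean log2 CPM of -0.39 in the SAMP8 form and -0.22 in the SAMP form. Sqle was 0.26 higher in the SAMP8 form and stood at -0.02 in the SAMP form, so its difference was not seen within the smaller set. With name form as a covariate, Idi1 passed the threshold and Sqle did not (adjusted p = 0.0563, edgeR).

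Between the sexes, none of the 7 genes passed the threshold, against 0.0552% of all genes (9 genes, with 0.0307% higher and 0.0245% lower in males). The smallest adjusted p among them was 0.446 (edgeR), and 1 of the 7, Hmgcs1, had an unadjusted p under 0.05, against 10.8% of all genes. The male over female log2 differences were positive for 6 of 7 genes, from 0.08 for Cyp51 to 0.23 for Idi1, and -0.05 for Sqle. The median length slope was also lower in males, at -0.0613 in PBS males and 0.0220 in PBS females. In treated mice it was 0.0552 in males and 0.184 in females. With the length slope in the model, 0 of the 7 genes had an unadjusted p under 0.05 for sex (edgeR). The part of the slope in these differences was not tested. Hmgcs1 showed the clearest pattern in vehicle mice, with PBS males at 240.0 to 270 CPM and PBS females at 208 to 243 CPM. In treated mice the sexes overlapped, at 197 to 245 CPM in males and 216 to 230 CPM in females. The treatment difference of Hmgcs1 was -0.02 in females and -0.20 in males, but the interaction did not pass (unadjusted p = 0.118, adjusted p = 1.00, edgeR). No gene at all passed the interaction test with edgeR, limma/voom or DESeq2, and 1.66% had an unadjusted p under 0.05 with edgeR, none of them among the 7. The interaction p of the 7 ranged from 0.118 to 0.859, with 3 treated females as the smallest group.

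The 7 genes varied together from mouse to mouse. After centering on the mean of each treatment and sex group, all 21 pairs had a positive Pearson's r over the 21 mice, from 0.02 (Idi1 with Sqle) to 0.83 (Fdft1 with Fdps), with a median of 0.60. The median over all pairs of 10462 genes of moderate or high level was 0.01 and the upper quartile 0.48. With the length slope also regressed out, the median of the 21 pairs was 0.56 and the upper quartile over all pairs 0.26. In that setting the highest pair was Fdps with Sqle (0.85), and Idi1 was the gene that stood apart, at -0.16 with Fdps and -0.02 with Fdft1. These correlations are over mice that share libraries and are given without a test.

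Most of the 7 genes were steady between mice of a group. The within-group SD of log2 CPM was 0.09 for Hmgcs1, lower than in 97.5% of the 10462 genes, and 0.14 for Sqle, 0.15 for Insig1, 0.16 for Cyp51, 0.18 for Fdft1 and 0.20 for Fdps. Idi1, at 0.27, was the only member above the median of those genes, 0.23.

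**Figure D3:**
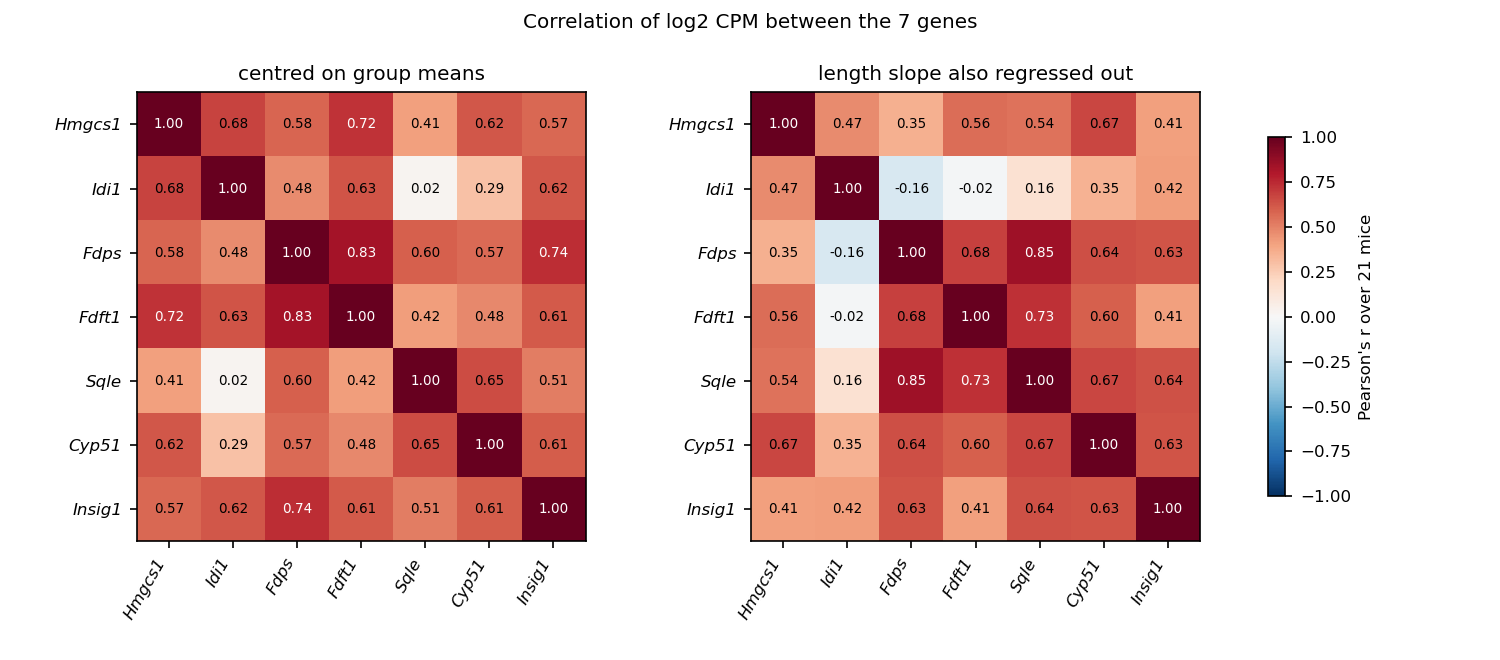
Pearson's r of log2 CPM between each pair of the 7 genes over 21 mice, centered on group means (left) and after the length slope was also regressed out (right). All pairs are positive on the left, from 0.02 to 0.83, and on the right the Idi1 row is the palest.

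The genes whose pattern over mice was most like the mean of the 7 were Ptdss1 (r of 0.90), Cct5 (0.90), Msmo1 (0.89), Cct7 (0.89) and Arl6ip1 (0.89), of 10455 ranked. Msmo1 is itself an enzyme of the pathway, acting downstream of Cyp51, and Ptdss1 makes phosphatidylserine. Cct5 and Cct7 encode subunits of the TRiC chaperonin. With the length slope regressed out, the same 5 genes kept r between 0.78 and 0.82 and ranks from 7 (Cct5) to 22 (Arl6ip1), behind a first 5 of Maea, Klhl22, Psmd5, Saraf and Mrps22. Dhcr7, an enzyme of the end of the pathway, moved from an r of -0.43 to 0.54 in that setting. Other enzymes moved down, among them Ebp from 0.62 to 0.06 and Pmvk from 0.72 to 0.38, so the pathway did not shift in one direction. These pairings are descriptions over 21 mice and carry no test.

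Among the other 15 enzymes of the pathway, 3 were higher and 1 lower in HsTX1[R14A] mice, and 11 did not pass. The median log2 difference of the 15 was 0.0063. Dhcr7 rose from 24.8 ± 3.77 CPM in PBS mice (n = 12) to 29.5 ± 3.99 CPM in treated mice (n = 9), a log2 fold change of 0.26 ± 0.09 (adjusted p = 0.0420, edgeR), and the call was kept in 10 of the 21 fits that left out 1 mouse. Pmvk, which phosphorylates phosphomevalonate, fell by 0.32 on the log2 scale (SE 0.10, adjusted p = 0.0237). The call of Pmvk was lost without PBS mouse 90 and without treated mouse 98, with log2 differences of -0.36 to -0.28 over all mice left out in turn. Of 13 alternative fits, 7 kept the call of Pmvk. It was lost with library name form or the length slope as a covariate and with length and GC trends removed. The call was also lost within either name form alone and without PBS mice 103 and 90. With the length slope in the model, where no gene at all passed, the differences were -0.0061 for Dhcr7 (opposite in sign) and -0.06 for Pmvk. Counting the 6 enzymes among the 7 genes, 4 of 21 enzymes were higher and 2 lower, which is not one direction along the pathway. Over all genes 15.5% were called higher and 16.1% lower, so these counts are close to the background.

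**Figure D4:**
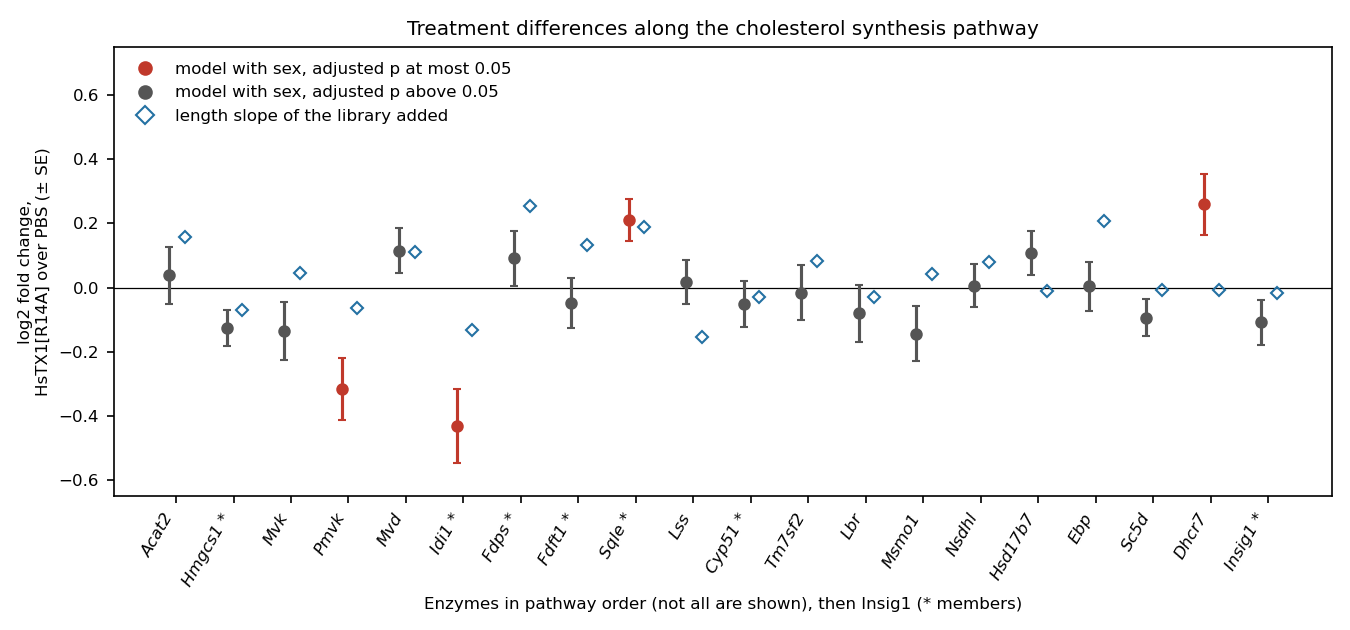
Treatment difference (log2, HsTX1[R14A] over PBS) of 19 of the 21 enzymes in pathway order and Insig1, as circles with SE (red where the adjusted p is at most 0.05), and the same with the length slope in the model as open diamonds without error bars. Of the 4 enzymes shown in red, Sqle and Dhcr7 are higher and Pmvk and Idi1 lower, and 3 of these 4 differences lie nearer to 0 by more than 0.1 in the second model, Sqle being the exception.

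The regulators and neighbors of the pathway were read from lists of known members, beside 15.5% of all genes called higher and 16.1% lower. Of 9 SREBP regulators, 3 were higher and none lower, with a median log2 difference of 0.21. Srebf2 rose by 0.50 ± 0.16 (adjusted p = 0.0255, edgeR), Scap by 0.51 ± 0.17 (adjusted p = 0.0337) and Rnf145, a ubiquitin ligase, by 0.43 ± 0.13 (adjusted p = 0.0256). Mbtps1, which cuts SREBP in the Golgi, was at 0.21 ± 0.09 (adjusted p = 0.0701). With the length slope in the model, where no gene at all passed, the median was -0.01. Insig2, the paralog of Insig1, was at -0.11 ± 0.08 (adjusted p = 0.295) and did not pass either.

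The counts in the next 4 lists stand beside the same 15.5% of all genes called higher and 16.1% lower. Of 8 genes of sterol uptake and transport, 3 were higher, among them Lrp1 by 0.96 ± 0.26 and Osbp by 0.30 ± 0.09. Npc2, which carries cholesterol within lysosomes, was lower by a log2 difference of -0.36 ± 0.11. Of 10 genes of sterol efflux, LXR signaling and turnover, 3 were higher and none lower. These were the transporters Abcg1 (0.45 ± 0.12) and Abcg4 (0.79 ± 0.22) and Cyp46a1 (0.41 ± 0.13), the neuronal hydroxylase through which the brain sheds cholesterol, while Soat1 was at 0.22 ± 0.10 and did not pass. Of 9 genes of fatty acid synthesis, 4 were higher and none lower, namely Elovl6 (0.30 ± 0.07), Acly (0.37 ± 0.11), Fasn (0.81 ± 0.26) and Acaca (0.47 ± 0.16). Of 10 genes of the non-sterol isoprenoid branches, 3 were higher (Pggt1b, Dhdds and Fntb, at 0.24, 0.21 and 0.32) and 1, Ggps1, lower (-0.33 ± 0.11). With the length slope in the model, where no gene at all passed, the medians of these 4 lists lay between -0.04 and 0.08. Single genes did not all move toward 0. Pggt1b, which prenylates small GTPases, stood at 0.32 (adjusted p = 0.165, edgeR) in that model, above its 0.24 without the slope, and Elovl6 at 0.18 (adjusted p = 0.360).

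**Figure D5:**
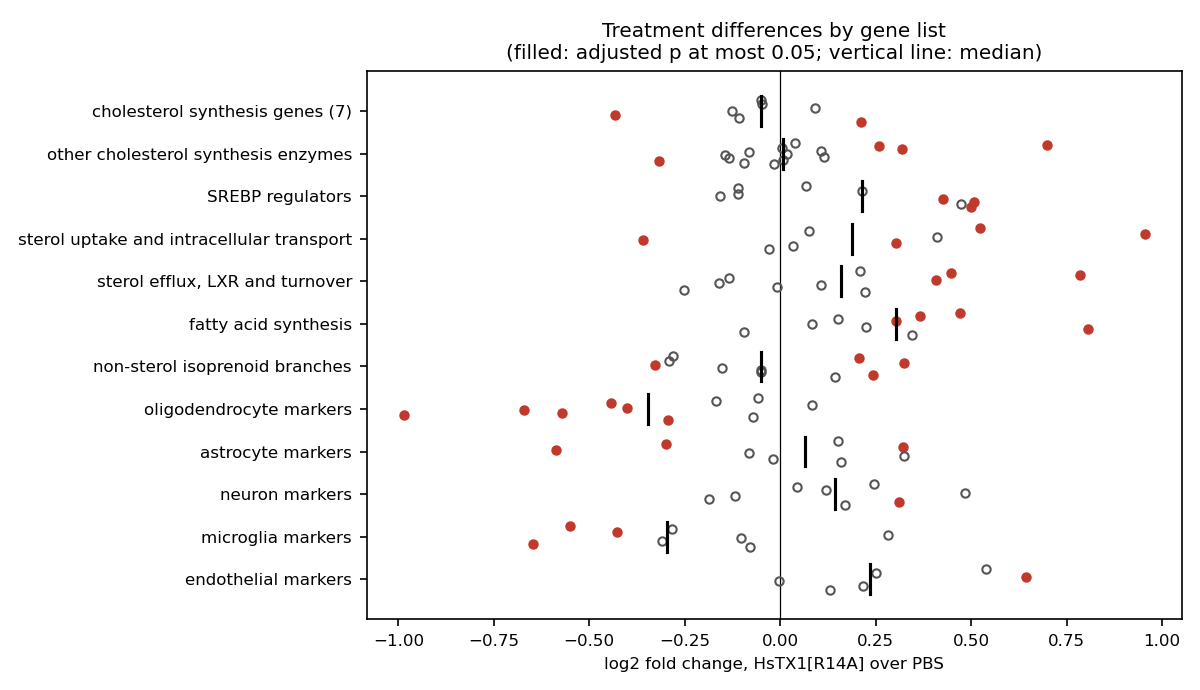
Treatment difference (log2, HsTX1[R14A] over PBS) of each gene of the lists, filled where the adjusted p is at most 0.05, with a vertical line at each list's median. The 7 cholesterol synthesis genes center near 0 (median -0.05), oligodendrocyte and microglia markers lie mostly below 0, and fatty acid synthesis genes mostly above 0.

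Because cholesterol synthesis is strong in the cells that make myelin, markers of the cell types of brain were read beside it. None of them was at 0 CPM in every mouse, but some were low. In its lowest mouse, the erythrocyte marker Hba-a2 was at 0 CPM and the choroid plexus marker Folr1 at 0.202 CPM. Over all genes, 15.5% were called higher and 16.1% lower. Of 10 oligodendrocyte markers, 6 were lower in HsTX1[R14A] mice and none higher. Their summed level was 4518 to 6917 CPM (median 5323) in PBS mice and 3432 to 5049 CPM (median 4560) in treated mice. Mbp, the main myelin basic protein, averaged 2479 ± 361 CPM in PBS and 1912 ± 269 CPM in treated mice (adjusted p = 0.0161, edgeR). The part of these markers in the differences of Idi1 and Sqle was not tested. Of 8 microglia markers, 3 were lower, with sums of 395 to 581 CPM in PBS mice and 332 to 498 CPM in treated mice, among them P2ry12, which averaged 116 ± 31.4 and 77.2 ± 17.6 CPM. No marker of any list passed once the length slope was in the model, where no gene at all passed. The median log2 difference of the microglia markers went from -0.30 to -0.07 and that of P2ry12 from -0.65 to -0.25, while the oligodendrocyte median went from -0.35 to -0.24 and Mbp from -0.40 to -0.41. Of 8 astrocyte markers, led by Slc1a2 and Slc1a3, 1 was higher and 2 lower. Of 8 neuron markers, led by Snap25 and Map2, 1 was higher, and of 6 endothelial markers, led by Flt1 and Slco1a4, 1 was higher. No choroid plexus, erythrocyte or nuclear noncoding RNA marker passed, led by Ttr and Kl, Hba-a1 and Hbb-bs, and Meg3 and Snhg11.

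Liver transcripts are of interest since hepatocytes make much cholesterol. Of 5 hepatocyte markers, 1, Apoa1, was lower, against 16.1% of all genes, and the list is led by Ttr, which the choroid plexus also makes. The level of Apoa1 was low, at 1.29 ± 0.91 CPM in PBS and 0.585 ± 0.33 CPM in treated mice (mean ± SD). Albumin mRNA (Alb) ran from 0.0710 to 19.3 CPM in PBS mice (median 5.65) and from 0 to 9.03 CPM in treated mice (median 0.160). The part of liver transcripts in the differences was not tested.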

How the data were processed

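Whole-brain RNA of 21 SAMP8 mice was sequenced with 1 library per mouse. The authors used STAR (GRCm38) for alignment and Salmon for quantification, and the deposited values are estimated counts without normalization. The labels name a SMARTER kit and the methods of the study an MGI directional kit, so whether counting used strand is uncertain. Rounding to whole numbers preceded all tests. Before it, 90.5% of the values were already whole to within 0.01. A further 53 per-sample columns (37 of CPM, 16 of counts) and the authors' own fold changes and p-values for treatment were not used.

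After filterByExpr, 16303 genes remained. Library sizes were TMM-adjusted, and the quasi-likelihood F test of edgeR 4.0.16 (R 4.3.3) was run on a model of sex plus treatment, with Benjamini-Hochberg adjustment over all genes (FDR at most 0.05). An interaction model was fitted likewise. Standard errors were derived from the F statistic, and 95% intervals from a t distribution with 18 degrees of freedom, which is approximate. Log2 CPM carries a prior count of 2. Length slopes used the longest GENCODE transcript, found for 16224 of the tested genes. Alternatives included limma 3.58.1 (voom) and DESeq2 1.42.0. The edgeR fit was also run on simulated counts in which some genes were changed by a known fold. That simulation held no trend on transcript length, so it does not bear on the length slope. P-values measure the spread between mice.

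The 7 genes and all gene lists were chosen with earlier results of these data known, as was the length slope. Named genes are the 7, up to 4 genes per pathway list with the smallest treatment p, the 2 most abundant genes per marker list, and the 5 genes (mean log2 CPM at least 3) most correlated over mice with the mean of the 7. Some genes of the lists are counted but not reported by name here. Dhcr7, Ebp and Pmvk among the correlations, Insig2, Apoa1 and Alb were added after their values were seen.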

Additional observations from a re-analysis of the deposited data

Results flagged for a closer look

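In PBS males, Sqle in mouse 102 was measured at 46.4 CPM, apart from the next highest of the 6 mice at 39.9 CPM. The gap is just above the 95% limit of Dixon's test. In all, 21 groups were tested, of which chance marks about 1 in 20. This mouse also had the highest Cyp51 (57.4 CPM) of the PBS mice and the highest Fdps (46.6 CPM) of the PBS males, and it is 1 of 2 PBS mice with the SAMP form of library name. Without it the log2 difference of Sqle between treatments was 0.25, against 0.21 with all mice.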

How the results depend on the processing

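According to the methods of the study, mice were randomized to treatment within cages. The sample labels do not name the cage, so no analysis paired or blocked by cage was possible. The count of genes called for treatment, 5144 with all mice, was 2984 without the sex term, 1999 with library name form as a covariate, 0 with the length slope as a covariate (1865 at an unadjusted p under 0.05), 2501 with length and GC trends removed, 0 within the 15 libraries of the SAMP8 form (5797 unadjusted) and 0 within the 6 of the SAMP form (532 unadjusted). It was 2887 without PBS mice 103 and 90, a setting chosen after seeing the data because these libraries have the lowest length slopes. Leaving out 1 mouse gave 2289 (without PBS 90) to 6614 genes (without HsTX1[R14A] 93), with 3005 without mouse 98, 3332 without 71, 3121 without 88 and 3263 without 81. The count of the 7 genes called, 2, became 1 with name form, and 0 with the length slope, with trends removed and within either form. It ran from 1 (without mouse 71) to 2 over mice left out.

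For Sqle the log2 difference was 0.19 with name form (adjusted p = 0.0563), 0.10 with trends removed (0.298) and 0.28 within the SAMP8 form (0.0608), and it reversed to -0.048 within the SAMP form. For Idi1 it was -0.23 with trends removed (adjusted p = 0.05002, just above the threshold), -0.42 within SAMP8 (0.0777) and -0.25 within SAMP (0.855), and -0.48 to -0.36 over mice left out, all past the threshold. Signs also turned for Hmgcs1 with trends removed (0.0057), for Fdft1 with the length slope (0.13) and without PBS 103 and 90 (0.011), and for Fdps within SAMP (-0.12). The causes were not tested. Fdft1 kept its sign with trends removed (-0.17). The other fits (limma/voom, limma/voom with quality weights, DESeq2, RLE scaling, both count filters) kept Idi1 and Sqle past the threshold.

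The 9 genes called for sex became 26 with DESeq2, 1 with at least 10 counts in every mouse, 18 with trends removed and 2582 with sample quality weights, which also called 1 of the 7, Idi1 (adjusted p = 0.0404). Leaving out 1 mouse gave 7 to 11. The interaction gave 0 genes throughout. Of the 5 genes most like the 7, 1 stayed among the first 5 with Spearman's rho and 0 with the length slope regressed out, where they ranked 7 to 22. No mouse had fewer than 486 counts for any of the 7 genes, and the limit set by depth was not compared with that set by the number of mice. Among the listed pathway genes called, the call was kept in 8 (Fntb), 11 (Dhdds), 13 (Scap, Ggps1), 14 (Acaca), 16 (Cyp46a1) and 17 (Fasn) of the 21 fits that left out 1 mouse, and in 19 or more for the others except Dhcr7.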
